A study of Mus musculus with 16 samples.

Results

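The genes described here lie within 10 Mb of *Slc27a2*, the gene that encodes FATP2, on mouse chromosome 2. Members were all genes of the deposited table on that chromosome that start between 123905059 and 143941968 and whose counts over the 16 libraries sum to at least 160, without *Slc27a2* itself. The members, 187 of 41096 genes, were thus chosen by position and by the measured count summed over all libraries of both genotypes. The rule did not use the difference between genotypes, but a gene high in 1 group can pass through that group. Of the called members this held for *Prom2*, with 409 of 439 counts in female *Fatp2*-/- livers, and *Tyro3*, with 107 of 242 in male *Fatp2*-/- livers. Each passed the rule only with the counts of that group. The window was proposed with genotype results for this region already known, so the counts of members that follow describe the region and are not independent evidence about it. Coordinates are those of the C57BL/6NJ annotation in the table, where *Slc27a2* (MGP_C57BL6NJ_G0026861) runs from 133905059 to 133941968.

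Whole livers of 16 mice aged 11 weeks were compared, all kept on a standard chow diet, in 4 groups of 4 mice: control males, *Fatp2*-/- males, control females and *Fatp2*-/- females. The *Fatp2*-/- mice are whole-body nulls. The allele was made on the SV129 strain, was back-crossed into C57BL/6, and carries a neomycin-resistance cassette within the targeted exons. The controls are wild-type C57BL/6 mice that the study bought, so genotype cannot be told apart from the origin of the mice. Mice are named by their labels, black629, black638, black650 and black693 for male *Fatp2*-/- and black631, black643, black634 and black652 for female *Fatp2*-/-.

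When a null allele made in 129 embryonic stem cells is moved into another strain by back-crossing, chromosome around the allele is inherited with it, and the stretch that remains grows shorter on average with each generation. Genes in such a stretch, often called flanking or passenger genes, can differ between mutant and control mice through strain differences in their own sequence. The members are otherwise an assortment with no shared function, and include liver enzymes such as *Sord* and *Hao1*, the antigen-presentation gene *B2m*, and genes of cell division, RNA processing and protein folding. The table holds counts per gene and no base calls, so the strain of origin of each member was not tested.

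Library totals ran from 10657034 to 18237325 counts (median 15910535), and 98176 to 160314 of these fell in the members. *Slc27a2* stood at 106 to 122 CPM (counts scaled to library size with TMM factors) in male *Fatp2*-/- livers and 837 to 915 CPM in male controls, and at 76.1 to 150 CPM in female *Fatp2*-/- livers and 508 to 615 CPM in female controls. Its log2 fold change was -2.99 (S.E. 0.09) in males and -2.25 (S.E. 0.22) in females. Counts are per gene and not per exon, so the source of the reads left in *Fatp2*-/- livers was not tested. Hepatocyte markers summed to 53900 to 107000 CPM in the 16 libraries. Marker sums left out any gene that is a member. Skeletal muscle markers (12 of 13 listed genes summed) reached 4410 CPM in black693 and 238 CPM in black652, against at most 9.25 CPM in any control library. Pancreas and gut markers reached 448 CPM in a male *Fatp2*-/- library against at most 139 CPM in male controls. T and B cell markers summed to 4.55 to 9.02 CPM in male *Fatp2*-/- livers against 9.68 to 15.5 CPM in male controls, with medians of 7.78 and 14.2 CPM in *Fatp2*-/- and control females. Erythroid markers (2 of 4 listed genes summed) came to 91.6 to 117 CPM in male *Fatp2*-/- livers against 119 to 147 CPM in male controls, with medians of 13.0 and 9.43 CPM in *Fatp2*-/- and control females. The part of both lists in the values of the members was not tested. The library of black684, a female control, had the most genes with a count, 27810, at the smallest total. Calls that were lost without black638 and black693 (in males) or without black638, black693 and black652 (over both sexes) are given with the value left.

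The window held 418 genes in all, of which 60 had no count and 171 had a sum of 1 to 159. The members just inside the count rule were 9830144P21Rik with a sum of 164 and *Slc24a5* with 166, and those just outside were Gm14137 with 159 and *Dusp2* with 137. The first and last members were *Thbs1*, which starts 9.14 Mb before *Slc27a2*, and *Plcb4*, which starts 9.66 Mb after it. The nearest genes outside the window were *Rasgrp1* (10.05 Mb before) and *Mkks* (10.94 Mb after). Here "before" means lower coordinates, "after" means higher coordinates, and a distance is from a gene's start to the nearer end of *Slc27a2*.

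The members covered a wide span of expression. Their mean level over the 16 mice, in FPKM (counts scaled by gene length and library size), had a median of 5.48 and ran from 0.16 to 1520, beside a median of 8.48 FPKM for all 13550 genes with a summed count of at least 160. *B2m*, the light chain of class I major histocompatibility molecules, was the highest member at 1520 FPKM. Next came *Sord*, sorbitol dehydrogenase, at 539 FPKM, *Pdia3*, a disulfide isomerase of the endoplasmic reticulum, at 360 FPKM, and *Ddrgk1*, which takes part in UFMylation, at 318 FPKM. At the other end, 32 members were under 1 FPKM.

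Genotype was compared with edgeR's quasi-likelihood test across all genes, in each sex and as the average of both sexes, with Benjamini-Hochberg adjusted p at most 0.05 as the call. Over both sexes 3.62% of all 14079 genes tested were called, against 17 of 187 members (9.09%), of which 8 increased (2.44% of all genes) and 9 decreased (1.17% of all genes) in expression in *Fatp2*-/- livers. In males 2.43% of 13111 genes were called, against 10 of the 180 members tested (5.56%), of which 4 increased (1.71% of all genes) and 6 decreased (0.725% of all genes). In females 0.662% of 13601 genes were called, and 1 of the 185 members tested, *Prom2*, was called (0.541%), as an increase (0.471% of all genes). At an unadjusted p under 0.05, the members counted 53 (28.3%) over both sexes beside 19.2% of all genes, 37 (20.6%) beside 16.2% in males, and 30 (16.2%) beside 11.3% in females. Of the 20 members called in any of these 3 comparisons, 16 lay before *Slc27a2*, where 93 of the 187 members lie. The share of all genes called in any of the 3 is not given here. This split by side was chosen after the values were seen.

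Most members did not move far. The median absolute log2 fold change over both sexes was 0.18 for the members and 0.17 for all genes tested, and the signed median of the members was 0.00. Without black638, black693 and black652 the number of members called over both sexes was 4 (*Exd1*, *Disp2*, *Gpat2* and A430105I19Rik), with 289 genes called in all. Without the male *Fatp2*-/- mouse black638 alone it was 7, without black650 10, without the male controls black662 or black675 8 each, without the female *Fatp2*-/- mice black643, black634 or black652 9, 10 and 8, and without the female control black676 it was 26. In each of these fits fewer genes were called in all than with 16 mice, except without black676, where more were called. The member counts did not follow that total in proportion. Without black638 fewer members were called than without black650, although more genes were called in all. Without black629 the count was 15, also with fewer genes called in all. Without black638, black693 and black652 the members went from 17 to 4 and all genes from 509 to 289. The members thus fell further, and their higher share with 16 mice rests in large part on these 3 libraries. That fit also has fewer mice, and the cause was not tested. The calls of *Disp2*, *Exd1*, *Haus2*, *Spg11*, *Sord*, *Gpat2* and *Prom2* over both sexes were kept in all 16 fits without 1 mouse.

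**Figure D1:**
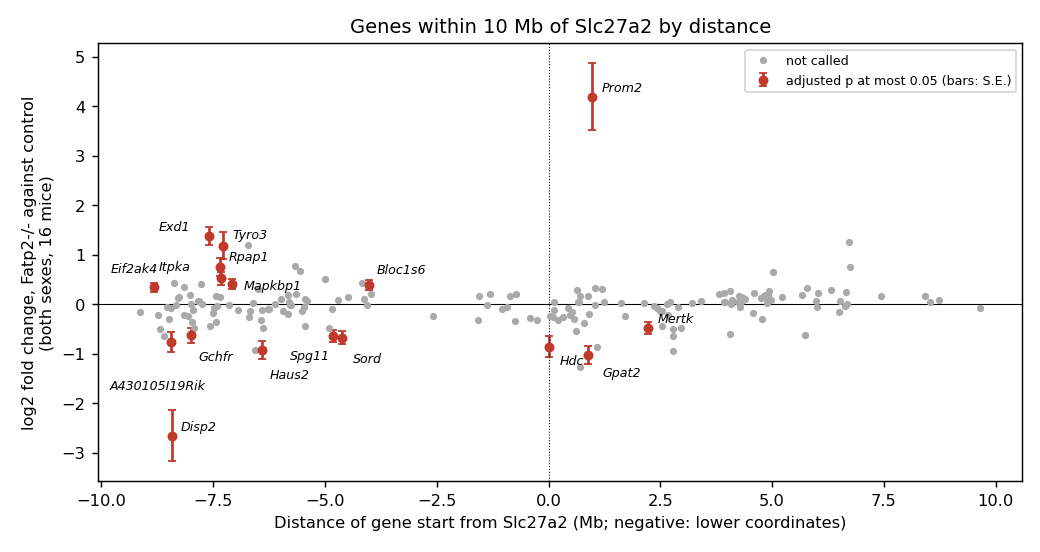
Log2 fold change of each of the 187 members, *Fatp2*-/- against control over both sexes (vertical axis), by the distance of its start from *Slc27a2* in Mb (horizontal axis; negative values are lower coordinates). Red points with S.E. bars are the 17 members called at an adjusted p of at most 0.05, 13 of which lie before *Slc27a2*.

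*Exd1*, an exonuclease-domain gene of the piRNA pathway with little known role in liver, had the smallest adjusted p of the members. It lies 7.6 Mb before *Slc27a2* (126302043 to 126333765). In male *Fatp2*-/- livers it stood at 7.02 CPM in black629, 13.1 in black638, 12.9 in black650 and 12.4 in black693, and in male controls at 3.19, 2.13, 2.94 and 4.2 CPM. In female *Fatp2*-/- livers it stood at 7.99, 11.3, 6.8 and 9.35 CPM, and in female controls at 4.53, 5.33, 2.99 and 6.22 CPM. The genotypes did not overlap in either sex, and black629 was nearest to the controls among the males. *Exd1* increased with a log2 fold change of 1.86 (edgeR adjusted p = 0.003, S.E. 0.25) in males and 1.38 (edgeR adjusted p = 1.9e-04, S.E. 0.18) over both sexes. In females alone the value was 0.88 (edgeR adjusted p = 0.23, S.E. 0.25). Both calls were kept under the other factors, filters and tests that were run and in every fit without a mouse.

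*Disp2*, a member of the Dispatched family of membrane proteins known for the release of Hedgehog ligands, had the largest decrease of the called members. It lies 8.42 Mb before *Slc27a2* (125486672 to 125519810). In male *Fatp2*-/- livers it stood at 0.963 CPM in black629, 0.177 in black638, 0.069 in black650 and 0.125 in black693, against 2.46, 2.41, 3.02 and 3.79 CPM in male controls. In female *Fatp2*-/- livers it stood at 3.48 CPM in black631, 0.252 in black643, 2.78 in black634 and 0.215 in black652, against 10.3, 7.64, 8.71 and 3.92 CPM in female controls. No *Fatp2*-/- value reached a control value of the same sex. Within the female *Fatp2*-/- group, black643 and black652 were low and black631 and black634 were higher, and within the male group black629 was higher than the other mice. The log2 fold change was -3.13 (edgeR adjusted p = 0.018, S.E. 0.57) in males, -2.17 (edgeR adjusted p = 0.28, S.E. 0.67) in females and -2.65 (edgeR adjusted p = 0.0057, S.E. 0.51) over both sexes. The summed counts behind these values are 20 against 178 in males, a ratio of 0.109 (95% interval 0.0652 to 0.174), and 120 against 474 in females, a ratio of 0.221 (95% interval 0.179 to 0.27), both covering counting error only. In males the call was lost in 2 of 8 fits without a mouse (edgeR adjusted p up to 0.07, without black638) and without black638 and black693 (edgeR adjusted p = 0.1).

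*Prom2*, which encodes prominin 2, a membrane glycoprotein of epithelial protrusions related to prominin 1, had the largest increase. It lies 0.98 Mb after *Slc27a2* (134923090 to 134938052). In female *Fatp2*-/- livers it stood at 3.22, 8.64, 4.55 and 7.25 CPM, and in female controls at 0.191, 0.118, 0 and 0.222 CPM. In male *Fatp2*-/- livers it stood at 0.0688, 0.295, 0 and 0.876 CPM, and in male controls at 0, 0, 0 and 0.117 CPM. All 4 female *Fatp2*-/- mice were above every other mouse, whereas the male genotypes overlapped. *Prom2* is a member only through the counts of these 4 mice, so its increase is not independent of the count rule. The log2 fold change was 5.40 (edgeR adjusted p = 6.5e-04, S.E. 0.54) in females and 4.20 (edgeR adjusted p = 0.0012, S.E. 0.67) over both sexes, and the gene had too few counts to be tested in males alone. Summed counts were 409 against 8 in females, a ratio of 44.6 (95% interval 22.4 to 104, counting error only), and 20 against 2 in males, a ratio of 9.73 (95% interval 2.36 to 85.9). The test of the difference between the sexes gave -2.41 (edgeR adjusted p = 0.89, S.E. 2.17). Without black638, black693 and black652 the value over both sexes was 2.68 (edgeR adjusted p = 0.36), while the female call was kept in each of the 8 fits without a mouse.

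The promoters of *Prom2* and *Exd1* are shown because these genes had the largest increases over both sexes; *Exd1* was added after its values were seen. Each holds 250 bases before and 50 bases after the RefSeq start, from build GRCm38.p6, whose coordinates differ from those of the table. *Disp2* had no entry. The DR1 element, which PPAR and RXR receptors bind, was searched on both strands with up to 2 mismatches. Capitals would mark a match, and there was none in either window.
Prom2, chr2:127541368-127541667, minus strand: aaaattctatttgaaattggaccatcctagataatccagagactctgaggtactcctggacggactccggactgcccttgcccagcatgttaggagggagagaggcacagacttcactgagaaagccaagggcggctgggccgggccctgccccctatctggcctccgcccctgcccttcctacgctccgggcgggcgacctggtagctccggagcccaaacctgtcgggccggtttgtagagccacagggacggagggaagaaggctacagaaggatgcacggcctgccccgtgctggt
Exd1, chr2:119547578-119547877, minus strand: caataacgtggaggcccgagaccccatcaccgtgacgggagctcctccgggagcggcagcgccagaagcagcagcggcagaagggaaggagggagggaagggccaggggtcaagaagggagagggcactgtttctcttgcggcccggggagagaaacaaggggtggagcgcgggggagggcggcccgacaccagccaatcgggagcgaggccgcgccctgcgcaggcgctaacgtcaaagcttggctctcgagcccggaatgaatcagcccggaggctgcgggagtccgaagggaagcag
A match was present in 1268 of 32851 promoters (3.86%), in 3 of 179 promoters of the 151 members found in the table (1.68%), and in 0 of 21 promoters of the 17 called members found there.

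**Figure D2:**
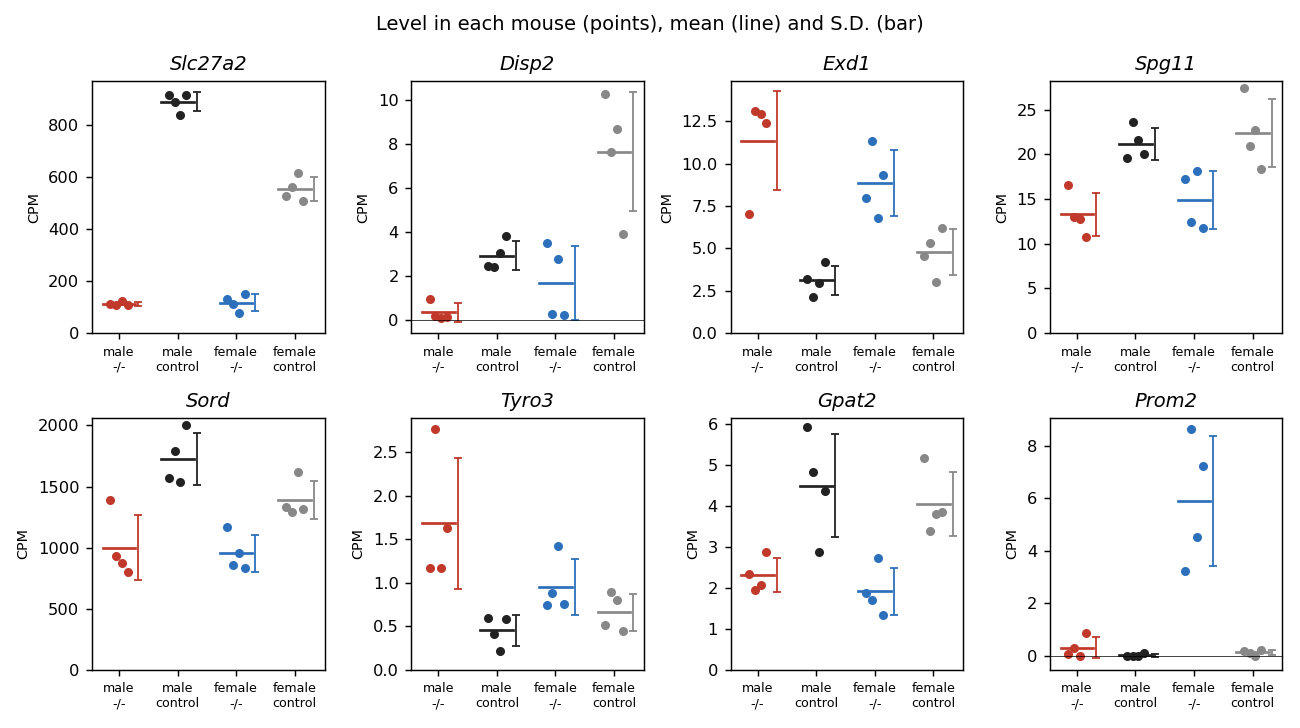
Level in CPM (vertical axes, from 0) of *Slc27a2* and 7 members in each of the 16 mice by group (points), with the mean (line) and S.D. (bar, n = 4). *Disp2*, *Exd1*, *Spg11* and *Sord* did not overlap between genotypes in either sex, and the female *Fatp2*-/- points of *Prom2* lie between 3.22 and 8.64 CPM.

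*Sord* and *Spg11* lie within 200 kb of each other, and both were lower in every *Fatp2*-/- mouse than in any control of the same sex. *Sord*, which oxidizes sorbitol to fructose (129289554 to 129329007, 4.62 Mb before *Slc27a2*), stood at 1390, 931, 871 and 799 CPM in male *Fatp2*-/- livers and at 1570, 1790, 1540 and 2000 CPM in male controls. In female livers it stood at 1170, 858, 952 and 836 CPM in *Fatp2*-/- mice and at 1330, 1290, 1620 and 1320 CPM in controls. The mice nearest to the controls were black629 and black631. The log2 fold change was -0.79 (edgeR adjusted p = 0.039, S.E. 0.17) in males and -0.67 (edgeR adjusted p = 0.0051, S.E. 0.13) over both sexes. Leaving out single mice ended the male call in 7 of 8 fits (edgeR adjusted p up to 0.12, without black638) and the call over both sexes in 0 of 16.

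*Spg11* encodes spatacsin, a protein of lysosome recycling (129093101 to 129163588, 4.81 Mb before). It stood at 16.6, 13, 12.8 and 10.8 CPM in male *Fatp2*-/- livers and at 19.6, 23.6, 21.6 and 20.1 CPM in male controls. In female livers it stood at 17.3, 12.4, 18.1 and 11.8 CPM in *Fatp2*-/- mice and at 27.4, 21, 22.7 and 18.4 CPM in controls. Its log2 fold change was -0.68 (edgeR adjusted p = 0.028, S.E. 0.14) in males and -0.63 (edgeR adjusted p = 0.0049, S.E. 0.12) over both sexes. The male call was lost in 4 of 8 fits without a mouse (edgeR adjusted p up to 0.09, without black650). *Spg11* overlaps *Eif3j1* on the other strand by 3079 bases, and whether the counting used strand is not given in the sources used here. Without black638, black693 and black652, the values over both sexes were -0.54 (edgeR adjusted p = 0.099) for *Sord* and -0.50 (edgeR adjusted p = 0.08) for *Spg11*. In males without black638 and black693 they were -0.60 (edgeR adjusted p = 0.20) and -0.52 (edgeR adjusted p = 0.17).

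*Disp2*, *Exd1*, *Spg11* and *Sord* were the only members whose genotypes, in CPM with TMM factors, did not overlap in both sexes in the same direction, 4 of 187 (2.14%) beside 1.85% of all genes tested. In males alone 28 members (15%) did not overlap, 10 higher and 18 lower, beside 10.3% of all genes. In females alone 25 members (13.4%) did not overlap, 13 higher and 12 lower, beside 6.89% of all genes. For the 4 genes the share is close to that of all genes.

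Among the other enzymes, *Gpat2* and *Hdc*, both close to *Slc27a2*, decreased over both sexes. *Gpat2*, a mitochondrial glycerol-3-phosphate acyltransferase best known in testis, lies 0.88 Mb after *Slc27a2* and has *Prom2* as the nearest called member. It stood at 2.34, 1.95, 2.07 and 2.88 CPM in male *Fatp2*-/- livers and at 5.92, 4.82, 2.87 and 4.37 CPM in male controls. In females it stood at 1.88, 1.7, 2.72 and 1.34 CPM in *Fatp2*-/- mice and at 5.17, 3.38, 3.79 and 3.85 CPM in controls. In males black693 lay just above the lowest control, and the female genotypes did not overlap. Its log2 fold change was -1.02 (edgeR adjusted p = 0.0032, S.E. 0.18) over both sexes, and the call was kept under all alternatives of normalization, filter and test and in all 16 fits without a mouse.

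*Hdc*, histidine decarboxylase, which makes histamine, starts 0.01 Mb after the end of *Slc27a2* and is the nearest member. It stood at 8.74, 7.37, 7.31 and 6.95 CPM in male *Fatp2*-/- livers and at 13.8, 22.6, 11.4 and 9.85 CPM in male controls, without overlap. In females it stood at 7.34, 5.49, 4.2 and 6.55 CPM in *Fatp2*-/- mice and at 8.29, 17.9, 5.99 and 8.29 CPM in controls, with overlap. Its log2 fold change over both sexes was -0.85 (edgeR adjusted p = 0.035, S.E. 0.22), and 11 of 16 fits without a mouse lost the call (edgeR adjusted p up to 0.084, without black662). It was also lost without black638, black693 and black652, at -0.83 (edgeR adjusted p = 0.17).

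The other members nearest to *Slc27a2* did not pass the test over both sexes. *Gabpb1*, a subunit of the transcription factor GABP (0.04 Mb after), had a log2 fold change of -0.24 (edgeR adjusted p = 0.15, S.E. 0.09) and Gm27003 (0.09 Mb after) one of -0.25 (edgeR adjusted p = 0.57, S.E. 0.23). On the other side, the values were -0.32 (edgeR adjusted p = 0.45, S.E. 0.22) for *Atp8b4*, which encodes a P4-type ATPase, and -0.28 (edgeR adjusted p = 0.19, S.E. 0.12) for *Dtwd1*. *Galk2*, an N-acetylgalactosamine kinase, was at 0.22 (edgeR adjusted p = 0.23, S.E. 0.10).

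Called members did not become more frequent toward *Slc27a2*. Over both sexes 3 of 28 members (10.7%) were called at 0 to 1 Mb, 0 of 12 at 1 to 2 Mb, 4 of 56 (7.14%) at 2 to 5 Mb and 10 of 91 (11%) at 5 to 10 Mb. By side, 13 of 93 members (14%) were called before *Slc27a2* and 4 of 94 (4.26%) after it. The called members before the gene all started at least 4 Mb away, 13 of 80 (16.2%), while 0 of 13 members were called nearer on that side. After the gene it was the reverse, with 4 of 50 (8%) within 4 Mb and 0 of 44 beyond. The side and the 4 Mb split were chosen after the values were seen and carry no test. In males all 10 calls lay 4 to 10 Mb before *Slc27a2* (10 of 78, 12.8%), and 0 of 89 members after it were called.

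Farther along chromosome 2, 0 of 50 genes were called over both sexes at 10 to 20 Mb, 13 of 247 (5.26%) at 20 to 40 Mb and 25 of 595 (4.2%) beyond 40 Mb, beside 452 of 12988 genes (3.48%) on other chromosomes. The median absolute log2 fold change varied less with place. Over both sexes it was 0.24 at 0 to 1 Mb, 0.19 at 1 to 2 Mb, 0.16 at 2 to 5 Mb, 0.19 at 5 to 10 Mb, 0.13 at 10 to 20 Mb and 0.17 on other chromosomes. Direction by place is given as a description and was not tested. The called members were 8 higher and 9 lower, and the called genes of other chromosomes 302 higher and 150 lower. On the rest of chromosome 2, called genes were 12 higher and 1 lower at 20 to 40 Mb, and 21 higher and 4 lower beyond 40 Mb.

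**Figure D3:**
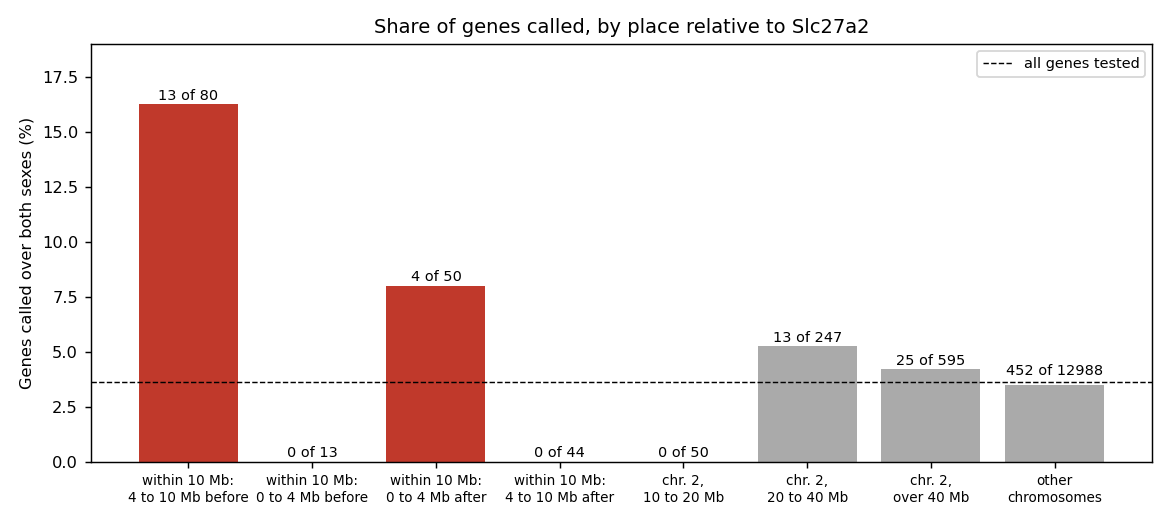
Share of genes called over both sexes in percent (vertical axis, from 0) by place relative to *Slc27a2*, with the counts above each bar; red bars are members and grey bars other genes, and the dashed line is the share of all genes tested. The bar for 4 to 10 Mb before *Slc27a2* stands at 16.2%, with bars of 0 for the 13 members nearer on that side, the 44 members 4 to 10 Mb after, and the 50 genes at 10 to 20 Mb.

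Between 7.07 and 7.35 Mb before *Slc27a2* lie 4 called members that all increased. *Tyro3*, a receptor tyrosine kinase of the TAM family that binds Gas6 and protein S, stood at 1.17, 2.77, 1.17 and 1.63 CPM in male *Fatp2*-/- livers and at 0.599, 0.413, 0.221 and 0.583 CPM in male controls, without overlap. In females it stood at 0.75, 0.883, 1.42 and 0.752 CPM in *Fatp2*-/- mice and at 0.51, 0.888, 0.798 and 0.444 CPM in controls, with overlap. The log2 fold change was 1.86 (edgeR adjusted p = 0.046, S.E. 0.42) in males and 1.19 (edgeR adjusted p = 0.027, S.E. 0.28) over both sexes. The male call was lost in each of the 8 fits without a mouse (edgeR adjusted p up to 0.14, without black638) and without black638 and black693 together (edgeR adjusted p = 0.28). The call over both sexes was lost in 5 of 16 such fits (edgeR adjusted p up to 0.068, without black638), with no filter on low counts, and without black638, black693 and black652 (edgeR adjusted p = 0.18).

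*Rpap1*, an RNA polymerase II-associated protein, stood at 31.3 to 41.3 CPM in male *Fatp2*-/- livers and 22.5 to 26.9 CPM in male controls, and at 25.4 to 37.4 against 14.5 to 28.4 CPM in females. It increased by 0.49 (log2, S.E. 0.11, edgeR adjusted p = 0.045) in males and 0.53 (edgeR adjusted p = 0.028, S.E. 0.13) over both sexes, and the male call was lost in each of the 8 fits without a mouse (edgeR adjusted p up to 0.12, without black638). The call over both sexes was lost in 8 of 16 such fits (edgeR adjusted p up to 0.068, without black638). *Itpka*, which phosphorylates inositol trisphosphate, stood at 2.27 to 4.26 against 2.35 to 2.79 CPM in males and 3.22 to 4.79 against 1.2 to 2.67 CPM in females, giving a log2 fold change of 0.76 (edgeR adjusted p = 0.026, S.E. 0.18) over both sexes. *Mapkbp1*, a scaffold protein of JNK signalling, stood at 9.42 to 12.9 against 6.77 to 8.81 CPM in males and 9.54 to 11.7 against 7.38 to 9.7 CPM in females, giving a log2 fold change of 0.42 (edgeR adjusted p = 0.027, S.E. 0.10). *Itpka* and *Mapkbp1* each lost the call in 6 of 16 fits without a mouse (edgeR adjusted p up to 0.065 without black675 and 0.068 without black650). Without black638, black693 and black652, the edgeR adjusted p over both sexes was 0.19 for *Rpap1*, 0.20 for *Itpka* and 0.17 for *Mapkbp1*, and *Rpap1* in males without black638 and black693 had 0.23. These 3 genes showed small increases, and each overlapped between genotypes in 1 of the sexes.

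*Eif2ak4*, which encodes the amino acid-sensing kinase GCN2, lies 8.83 Mb before *Slc27a2* and increased over both sexes by 0.35 (log2, S.E. 0.09, edgeR adjusted p = 0.033). It stood at 13.6 to 17.6 CPM in male *Fatp2*-/- livers and 10.2 to 11.8 CPM in male controls, and at 15.2 to 19 against 12.7 to 16.3 CPM in females. *Bloc1s6*, a BLOC-1 subunit of lysosome-related organelle formation, lies 4.01 Mb before and increased by 0.40 (log2, S.E. 0.10, edgeR adjusted p = 0.043), with 13.6 to 19.8 against 11.6 to 16.2 CPM in males and 12.8 to 17.8 against 10.7 to 13.3 CPM in females. Both calls rest on small changes and were lost in 8 and 11 of the 16 fits without a mouse, with edgeR adjusted p up to 0.075 without black638 for *Eif2ak4* and up to 0.1 without black675 for *Bloc1s6*. Upper-quartile factors and no filter on low counts each lost both calls as well. *Bloc1s6* also lost its call at 10 counts in every library and by limma-voom. Without black638, black693 and black652 the values were 0.29 (edgeR adjusted p = 0.22) for *Eif2ak4* and 0.31 (edgeR adjusted p = 0.27) for *Bloc1s6*.

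*Gchfr*, the feedback regulator of GTP cyclohydrolase I and of tetrahydrobiopterin synthesis, was expressed at 246 FPKM. It stood at 166, 105, 112 and 98.7 CPM in male *Fatp2*-/- livers and at 168, 153, 154 and 182 CPM in male controls. In females it stood at 157, 99.2, 129 and 109 CPM in *Fatp2*-/- mice and at 136, 220, 193 and 299 CPM in controls. In each sex the *Fatp2*-/- mouse that overlapped the controls was black629 or black631. Its log2 fold change over both sexes was -0.62 (edgeR adjusted p = 0.031, S.E. 0.15), lost in 11 of 16 fits without a mouse (edgeR adjusted p up to 0.079, without black643). Without black638, black693 and black652 it was -0.48 (edgeR adjusted p = 0.24).

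*Haus2*, a subunit of the augmin complex of the mitotic spindle, lies 6.4 Mb before *Slc27a2*. It stood at 4.48 to 7.15 CPM in male *Fatp2*-/- livers and 8.95 to 14.5 CPM in male controls, without overlap, and at 5.3 to 10.3 against 8.12 to 21.6 CPM in females. It decreased by 0.89 on the log2 scale (edgeR adjusted p = 0.041, S.E. 0.20) in males and by 0.92 (edgeR adjusted p = 0.011, S.E. 0.19) over both sexes. The male call was lost in 7 of 8 fits without a mouse (edgeR adjusted p up to 0.1, without black650) and without black638 and black693 (edgeR adjusted p = 0.13), and the call over both sexes without black638, black693 and black652 (edgeR adjusted p = 0.078). A430105I19Rik, 8.44 Mb before, stood at 2.28 to 6.32 against 4.19 to 6.06 CPM in males and 1.83 to 3.81 against 4.72 to 7.4 CPM in females, giving a log2 fold change of -0.76 (edgeR adjusted p = 0.049, S.E. 0.21) over both sexes that was lost in 13 of 16 fits without a mouse (edgeR adjusted p up to 0.11, without black638).

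*Mertk*, a TAM receptor like *Tyro3* that macrophages use to clear dying cells, moved the other way from *Tyro3*. It lies 2.23 Mb after *Slc27a2*, and stood at 15, 18.3, 13.7 and 17.3 CPM in male *Fatp2*-/- livers against 17.2, 23.5, 22.5 and 20.5 CPM in male controls. In females it stood at 27.7, 29.6, 19.3 and 27.5 CPM against 52, 34.6, 34.7 and 31.9 CPM, without overlap. The log2 fold change over both sexes was -0.47 (edgeR adjusted p = 0.038, S.E. 0.12), lost in 10 of 16 fits without a mouse (edgeR adjusted p up to 0.082, without black650). It was -0.56 (edgeR adjusted p = 0.086) without black638, black693 and black652. The 8 Kupffer cell and macrophage markers summed to 236 to 318 CPM in male *Fatp2*-/- livers and 238 to 348 CPM in male controls, and to 341 to 478 against 421 to 800 CPM in females. Their part in the *Mertk* value was not tested, and in whole liver fewer cells of a type and less RNA per cell cannot be told apart.

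Another 3 members were called in males and not over both sexes. *Catsper2*, a subunit of the sperm calcium channel, stood at 7.98, 7.72, 9.24 and 8.39 CPM in male *Fatp2*-/- livers and at 5.92, 4.96, 4.05 and 3.85 CPM in controls, giving a log2 fold change of 0.83 (edgeR adjusted p = 0.032, S.E. 0.17). *Pdia3* stood at 482, 397, 400 and 410 CPM against 544, 693, 609 and 562 CPM, giving a log2 fold change of -0.51 (edgeR adjusted p = 0.033, S.E. 0.11). The calls were lost in 6 and 5 of 8 fits without a mouse (edgeR adjusted p up to 0.11 for each, without black650 and black638). Without black638 and black693 the edgeR adjusted p was 0.11 for *Catsper2* and 0.21 for *Pdia3*. *Catsper2* and *Pdia3* overlap by 534 bases on opposite strands and moved in opposite directions in males. In females *Pdia3* stood at 298 to 434 CPM in *Fatp2*-/- livers and 240 to 357 CPM in controls, giving a log2 fold change of 0.22 (edgeR adjusted p = 0.64, S.E. 0.19).

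*Bmf*, a pro-apoptotic BH3-only gene, stood at 5.57, 6.42, 6.28 and 5.01 CPM in male *Fatp2*-/- livers and at 12.2, 14, 18.8 and 7.06 CPM in male controls. Its log2 fold change in males was -1.16 (edgeR adjusted p = 0.041, S.E. 0.25), whereas the female value was 0.15 (edgeR adjusted p = 0.87, S.E. 0.38), with 5.8 to 21.9 against 6.36 to 16.6 CPM. The male call was lost in 7 of 8 fits without a mouse (edgeR adjusted p up to 0.11, without black629), and without black638 and black693 (edgeR adjusted p = 0.17). The test of the difference between the sexes called 0 of 187 members, beside 0.0071% (1 gene) of all genes tested. At an unadjusted p under 0.05 it counted 10 members (5.35%) beside 6.11% of all genes, and DESeq2 and limma-voom also called 0 members. In simulated counts the edgeR test of the difference found 39% of 2-fold changes, so 0 calls does not show that the sexes are alike. *Bmf* and *Pdia3* were the 2 called members whose sign differed between the sexes, of 19 tested in both. Their differences were -1.31 (edgeR adjusted p = 0.79, S.E. 0.51) for *Bmf* and -0.74 (edgeR adjusted p = 0.59, S.E. 0.21) for *Pdia3*.

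**Figure D4:**
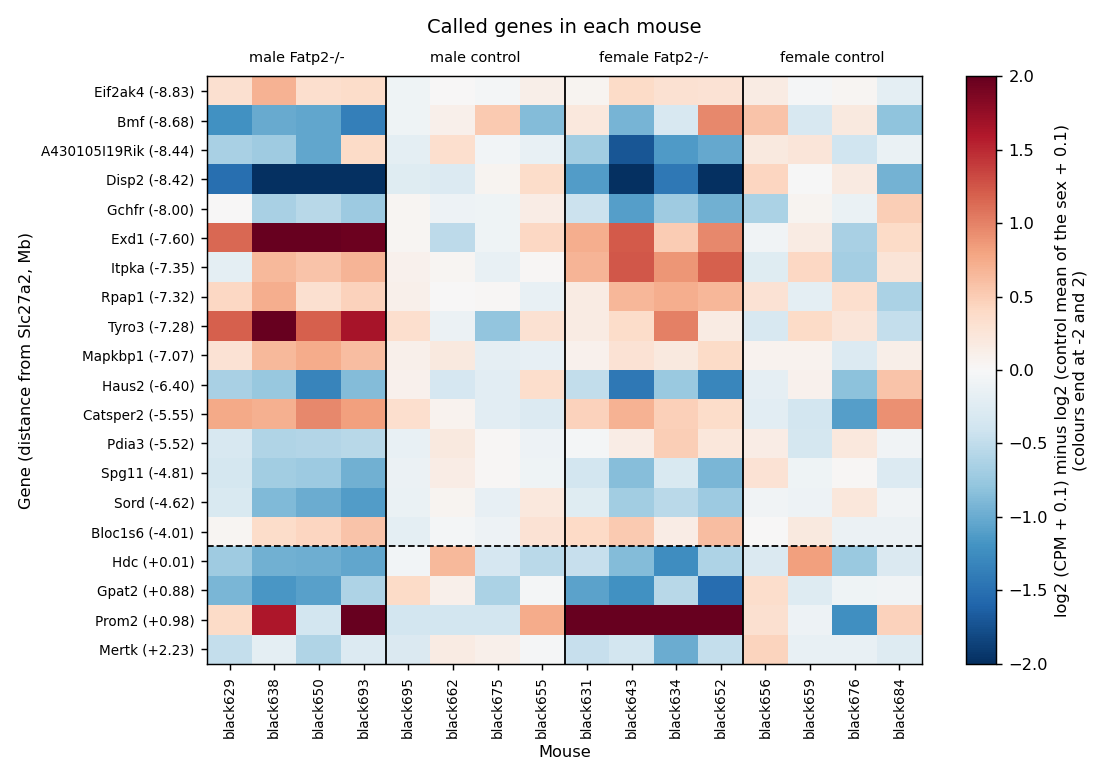
The 20 called members (rows, ordered by distance from *Slc27a2* in Mb; the dashed line marks the place of *Slc27a2*) in each of the 16 mice (columns), coloured by log2 (CPM + 0.1) minus the log2 of the control mean of the same sex plus 0.1; colours end at -2 and 2. The columns of black629 and black631 are paler than the other *Fatp2*-/- columns in many rows before *Slc27a2*.

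The values of single mice had a common order among the called members before *Slc27a2*. For each gene, the *Fatp2*-/- mouse of each sex least shifted in the direction of the fold change over both sexes was counted. Control values were not used. In 12 of these 16 genes (75%) this was black629 among the males, and in 10 of 16 (62.5%) it was black631 among the females. For *Bmf* and *Pdia3*, whose sign differed in females, the female mouse counted (black652 and black634) was the farthest from the control mean. Among the 452 genes of other chromosomes called over both sexes, black629 was least shifted in 17.3% and black631 in 24.6%, while black693 (47.8%) and black652 (33.4%) were least shifted most often. The libraries of black693 and black652 are those with skeletal muscle markers at 4410 and 238 CPM. The part of that tissue in this comparison was not tested. Among the 4 called members after *Slc27a2*, each male *Fatp2*-/- mouse was least shifted in 1 gene. This order was noticed in the values and is given as a description; neighbouring genes share the same mice and the same stretch of chromosome, and the genotype of each mouse along the chromosome was not tested.

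Across the sexes, 118 of 179 members tested in both (65.9%) had the same sign, beside 8095 of 12765 other genes (63.4%). The log2 fold changes in males and females correlated across members with Pearson's r of 0.60 and Spearman's rho of 0.49, and across other genes with 0.43 and 0.37. Genes are not independent replicates. *Disp2* was the only member tested in both sexes that lay beyond -2 in each. Of the 37 members with an unadjusted p under 0.05 in males, 33 (89.2%) had the same sign in females, beside 77.5% of such other genes.

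**Figure D5:**
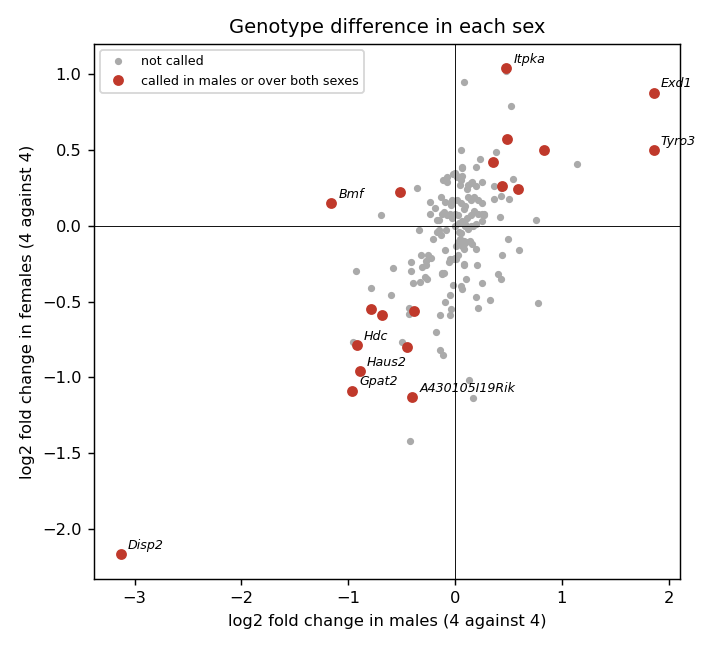
Log2 fold change in females (vertical axis, 4 mice against 4) by that in males (horizontal axis) for the 179 members tested in both sexes; red points are members called in males or over both sexes. The red points of *Exd1*, *Tyro3* and *Itpka* lie in the upper right and those of *Disp2*, *Haus2*, *Gpat2* and *Hdc* in the lower left, with *Bmf* and *Pdia3* in the upper left.

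By function, the members of 8 role lists were counted over both sexes. Beside these counts, 2.44% of all genes tested were called as increases and 1.17% as decreases. A gene can be in more than 1 list, as *Tyro3* and *Mertk* are. *Prom2* and *Tyro3*, counted as increases, passed the count rule only through the group where each was highest. Of 17 members in amino acid, sugar and small-molecule metabolism, 1 increased (*Itpka*) and 2 decreased (*Sord* and *Hdc*), with a median log2 fold change of 0.18. The most abundant of the others did not pass the test. *Ivd*, isovaleryl-CoA dehydrogenase of leucine breakdown, was at -0.02 (edgeR adjusted p = 0.96, S.E. 0.15), *Hao1*, glycolate oxidase, at 0.18 (edgeR adjusted p = 0.28, S.E. 0.09), and *Idh3b*, an isocitrate dehydrogenase subunit, at 0.23 (edgeR adjusted p = 0.12, S.E. 0.08).

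Of 10 lipid and phospholipid enzymes, 0 increased and 1 decreased (*Gpat2*), with a median of 0.05. *Cds2*, a CDP-diacylglycerol synthase, was at 0.23 (edgeR adjusted p = 0.40, S.E. 0.15) and *Crls1*, cardiolipin synthase, at 0.00 (edgeR adjusted p = 0.99, S.E. 0.12). *Stard7*, a phosphatidylcholine transfer protein, was at 0.17 (edgeR adjusted p = 0.28), and *Gpcpd1*, a glycerophosphocholine phosphodiesterase, at 0.29 (edgeR adjusted p = 0.60). None of 6 transporters and channels was called (median -0.25), where *Trpm7*, a cation channel and kinase, was at -0.31 (edgeR adjusted p = 0.22), the vitamin C transporter *Slc23a2* at 0.34 (edgeR adjusted p = 0.13), the phosphate transporter *Slc20a1* at -0.50 (edgeR adjusted p = 0.091) and the zinc transporter *Slc30a4* at -0.01 (edgeR adjusted p = 0.98).

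Of 12 members in innate immunity, antigen presentation and phagocytosis, 1 increased (*Tyro3*) and 1 decreased (*Mertk*). *B2m* was at 0.10 (edgeR adjusted p = 0.66, S.E. 0.11), and *Mavs*, the mitochondrial antiviral adaptor, at 0.28 (edgeR adjusted p = 0.28). The intramembrane protease gene *Sppl2a* was at -0.25 (edgeR adjusted p = 0.12) and the deubiquitinase gene *Usp8* at 0.04 (edgeR adjusted p = 0.87). Of 16 members in DNA replication, repair and cell division, 1 decreased (*Haus2*), and *Pcna*, the sliding clamp of DNA replication, was at -0.06 (edgeR adjusted p = 0.68, S.E. 0.07). *Cenpb*, *Anapc1* and *Tubgcp4*, of the centromere, the anaphase-promoting complex and the gamma-tubulin ring, were at 0.17, 0.02 and -0.01 (edgeR adjusted p = 0.41, 0.93 and 0.98).

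Of 18 members in RNA processing and transcription, 1 increased (*Rpap1*), while the spliceosome genes *Snrnp200* and *Snrpb* were at 0.29 and 0.22 (edgeR adjusted p = 0.23 and 0.42), *Zfp106* at 0.32 (edgeR adjusted p = 0.33) and *Rtf1*, of the PAF1 complex, at -0.03 (edgeR adjusted p = 0.88). Of 20 members in translation, protein folding and turnover, 1 increased (*Eif2ak4*). There *Ddrgk1* was at 0.07 (edgeR adjusted p = 0.71), *Secisbp2l* at 0.18 (edgeR adjusted p = 0.29), and *Cops2*, of the COP9 signalosome, at -0.34 (edgeR adjusted p = 0.25). Of 19 membrane organisers, adhesion and signalling genes, 2 increased (*Prom2* and *Tyro3*) and 2 decreased (*Disp2* and *Mertk*). *Atrn*, *Bmp2*, *Prnp* and *Ptpra* were at 0.23, 0.18, 0.20 and 0.10 (edgeR adjusted p = 0.25, 0.60, 0.42 and 0.58). No list had more than 2 members called in 1 direction.

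Sex differences among the controls gave a second view of the members, with control males against control females tested in the fit over 16 mice. Over all genes 12.1% were called, against 17 of 187 members (9.09%), with 7 higher (6.04% of all genes) and 10 lower (6.05% of all genes) in males, and 50 (26.7%) were under an unadjusted p of 0.05 beside 29.4% of all genes. *Hao1* had a log2 difference of 1.24 (edgeR adjusted p = 8.3e-06, S.E. 0.13), with 281 to 322 CPM in control males and 104 to 152 CPM in control females, without overlap. *Pdia3* was higher in control males (0.97) and *Mertk* and *Eif2ak4* lower (-0.87 and -0.42), so these 3 were called for both sex and genotype. Beside this, Kupffer cell and macrophage markers summed to 238 to 348 CPM in control males and 421 to 800 CPM in control females, and erythroid markers (2 of 4 listed genes) to 119 to 147 and 8.41 to 11.9 CPM. Whether the erythroid sum follows the number of erythroid cells was not tested. Neither list overlapped between the control sexes, and their part in these differences was not tested.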

How the data were processed

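Poly(A) RNA-Seq libraries of 16 livers were analyzed, each mouse placed by its deposited labels. The authors mapped paired reads with TopHat2 2.0.12 and Bowtie2 2.2.3 and made gene counts in the union mode of HTSeq 0.6.1. The authors deposited raw counts, which are the basis of all tests, and FPKM, which scale counts by gene length and depth and were used only for levels between genes. The authors' fold changes and p-values were not used. The submitters' notes name GRCm38, whereas identifiers and coordinates are of a C57BL/6NJ annotation. Genes without a name (10 members) keep their identifier, and 4 blank rows were left out.

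In R 4.3.3 with edgeR 4.0.16, genes were kept by filterByExpr (minimum count 10, minimum total 15), scaled by TMM and tested by the quasi-likelihood test, with Benjamini-Hochberg adjustment over all genes tested. Each sex was fitted alone, and the average over sexes, the difference between sexes and the control sexes in 1 fit with 4 group means. S.E. was obtained from the fold change and its F statistic, as their ratio with F under a square root. CPM use TMM factors over 16 mice. Steps were tested on simulated data. Replicates are separate mice. DESeq2 1.42.0, limma-voom (limma 3.58.1), RLE and upper-quartile factors, 2 other filters, robust dispersions, 1 fit over all mice, a log2 threshold of 1.5 and left-out mice were the alternatives. Members and gene lists were chosen with earlier results of these data known. Genes named are every called member, the 3 members nearest *Slc27a2* on each side, up to 4 per role list by mean CPM, and the edges of the rule. Promoters came from RefSeq.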

Additional observations from a re-analysis of the deposited data

Results flagged for a closer look

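In groups of 4 mice, a value was singled out when its gap to the nearest other mouse took up more of the group's range than the 95% critical value of Dixon's test allows. This held in 10 of 84 groups over the 20 called members and *Slc27a2*. The 5% rate of the test assumes independent normal values. These genes share the same mice and were chosen by their calls, so the count is not compared with that rate. The male *Fatp2*-/- mouse black629 stood apart in 4 of them: *Disp2* at 0.963 CPM (others 0.069 to 0.177), *Exd1* at 7.02 CPM (others 12.4 to 13.1), *Itpka* at 2.27 CPM (others 3.93 to 4.26) and *Pdia3* at 482 CPM (others 397 to 410). In all 4 genes it lay toward the male controls, and the 4 genes lie before *Slc27a2*. Another male *Fatp2*-/- mouse, black638, had *Eif2ak4* at 17.6 CPM (others 13.6 to 14.1).

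Among female *Fatp2*-/- mice, black631 had *Rpap1* at 25.4 CPM (others 35.9 to 37.4), again toward the controls. In the controls, black676 had *Mapkbp1* at 7.38 CPM (others 9.36 to 9.7) and *Sord* at 1620 CPM (others 1290 to 1330), and black656 had *Mertk* at 52.0 CPM (others 31.9 to 34.7). In black655 *Prom2* stood at 0.117 CPM (others 0), which is 2 counts.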

How the results depend on the processing

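None of the 20 called members changed sign, in a comparison that called it, under the alternatives run. Over both sexes, upper-quartile factors lost *Eif2ak4*, *Itpka*, *Mapkbp1* and *Bloc1s6*. Leaving out the filter lost *Eif2ak4*, *Tyro3*, *Mapkbp1*, *Bloc1s6* and *Mertk*, and limma-voom lost *Bloc1s6* and *Hdc*. In males, limma-voom lost *Bmf* and *Tyro3*, and upper-quartile factors *Rpap1*. The 1 fit over 16 mice lost the male calls of *Bmf*, *Disp2*, *Rpap1*, *Haus2*, *Catsper2*, *Pdia3* and *Spg11*. With 17 members called over both sexes, the count was 2 at a log2 threshold of 1.5 in either direction, 4 without black638, black693 and black652, and 7 to 26 without single mice, and 13 to 24 under other factors, filters and tests (DESeq2 24, which held all 17). With 10 called in males, it was 17 by DESeq2, 3 in 1 fit over 16 mice, 3 at the log2 threshold of 1.5, 1 without black638 and black693, and 1 to 6 without single mice. With 1 called in females, it was 4 with no filter, 0 at 10 counts in every library (where *Prom2* was not tested), 6 by DESeq2, and 1 to 2 without single mice. With 17 called between control sexes, it was 9 with no filter, 28 by DESeq2, 1 at the log2 threshold, 10 without the 3 libraries, and 10 to 31 without single mice. The totals over all genes moved as well. They rose by DESeq2 in each comparison, fell at the log2 threshold and without the named libraries, and in males fell in the 1 fit over 16 mice. With no filter over both sexes, and without black693 in males and over both sexes, fewer members were called although the total rose. A member count given alone does not show whether the members changed more than other genes.

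By place over both sexes, the 3 calls at 0 to 2 Mb became 1 at the log2 threshold, 1 without the 3 libraries and 2 to 6 without single mice. The 4 calls at 2 to 5 Mb became 2 with no filter, 7 by DESeq2, 0 at the log2 threshold, 0 without the 3 libraries and 2 to 7 without single mice. The 10 calls at 5 to 10 Mb became 1 at the log2 threshold, 3 without the 3 libraries and 3 to 13 without single mice. The 13 calls before *Slc27a2* became 1, 3 and 5 to 17 in these settings. The totals over all genes, described above for both sexes, moved in these settings as well. The split by side, and other tests by place, were added after seeing the data. The 4 members without overlap in both sexes became 10 without the 3 libraries and 4 to 9 without single mice. Fewer mice make non-overlap easier for every gene, and the share over all genes in these settings is not given here. The rise is therefore not read as a result about the members. Same-sign shares ran from 62 to 70.5%.

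The causes of these changes were not tested; leaving out mice also leaves fewer samples. No paired analysis was possible because each mouse carries its own label and no number is shared between groups. In males, 7 members had too few counts to be tested, and low genes such as *Prom2*, *Disp2* and *Tyro3* rest on few reads. The C57BL/6NJ annotation, overlapping genes and the unstated strand setting limit the counts.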
